A study of Rattus norvegicus with 9 samples.

Results

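Homeostatic microglia genes are the genes that microglia, the resident macrophages of the central nervous system, keep switched on in undisturbed tissue. The 8 genes followed here were P2ry12, P2ry13, Gpr34, Cx3cr1, Csf1r, Tmem119, Sall1 and Olfml3. They were fixed as a list of symbols, chosen with earlier results of these data known. Each symbol stood on 1 row of the count table, so that 8 of its 30507 rows are described. They were measured in whole spinal cord tissue from segments T9 to T11 of wild-type female Sprague-Dawley rats, which were 8 weeks old when obtained and were killed at 35 dpi, with 3 rats in each of 3 groups. The Sham rats were opened by a laminectomy at T10 without injury, although the labels call them untreated. The SCI rats had a contusion at T10 and no electrode. The SCI + SCS rats had the same contusion and were stimulated through epidural electrodes at 10 kHz for 2 h per day from 1 dpi to 35 dpi. No cells were sorted, and rats with electrodes but no stimulation were not analysed here, so electrode and stimulation cannot be told apart. The comparisons ask where these genes stood in the chronic phase after injury, without stimulation or with daily stimulation that ran until 35 dpi.

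Microglia survive through CSF1R, a receptor kinase for the ligands CSF-1 and IL-34. They sense injured cells through P2Y12 and P2Y13, receptors for ADP, and respond to the neuronal ligand fractalkine (Cx3cl1) through CX3CR1. GPR34 is a receptor for lysophosphatidylserine, TMEM119 is a membrane protein used as a microglial marker, SALL1 is a transcription factor that maintains microglial identity, and OLFML3 is a secreted glycoprotein. In many injuries and diseases the mRNA of such genes is known to fall in microglia that take up debris, while Csf1r is shared with other macrophages and Olfml3 is also made by cells of connective tissue. In bulk tissue, fewer cells of a type and less RNA per cell cannot be told apart.

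The libraries held 62844376 to 88358570 counts on genes, at which 3 counts, the smallest level shown, were 0.0340 to 0.0477 counts scaled to a library total of 1000000 (CPM). The members had 457 to 33146 counts per library, so counting error was small beside the spread between rats. Spinal cord tissue was recognisable in all libraries, as all 12 neuron and 9 oligodendrocyte markers had counts in every library. SCI replicates 1 and 3 stood apart, with a summed skeletal muscle list at 4249 and 1329 CPM against 26.5 to 83.2 CPM in the other 7 libraries. Results that use the SCI group are therefore also given with SCI replicate 2 as its only library, a choice made after seeing the data in which the lone library is assumed to vary like the other group. Sham replicate 1 was lowest of the Sham libraries in the fibroblast list (381 CPM, against 1167 and 1868 CPM) and highest in the neuron list (9232 CPM, against 5938 and 4270 CPM). The part of the muscle, fibroblast and neuron signals in the results on the 8 genes was not tested beyond the values given beside them.

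After SCI, Csf1r and Olfml3 rose and the other 6 members did not pass the test. In edgeR (quasi-likelihood F test, p adjusted by Benjamini-Hochberg over 17822 genes), 2 of the 8 were called higher, where 24.3% of all genes tested were. None of the 8 was called lower, where 25.0% of all genes were. The count of members at an unadjusted p under 0.05 was also 2, where 10211 of the 17822 genes were under it. The median log2FC of the members was 0.42 (range, -0.43 to 2.49), beside a median of 0.02 over all genes. The share called higher was thus near that of the whole table.

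**Figure D1:**
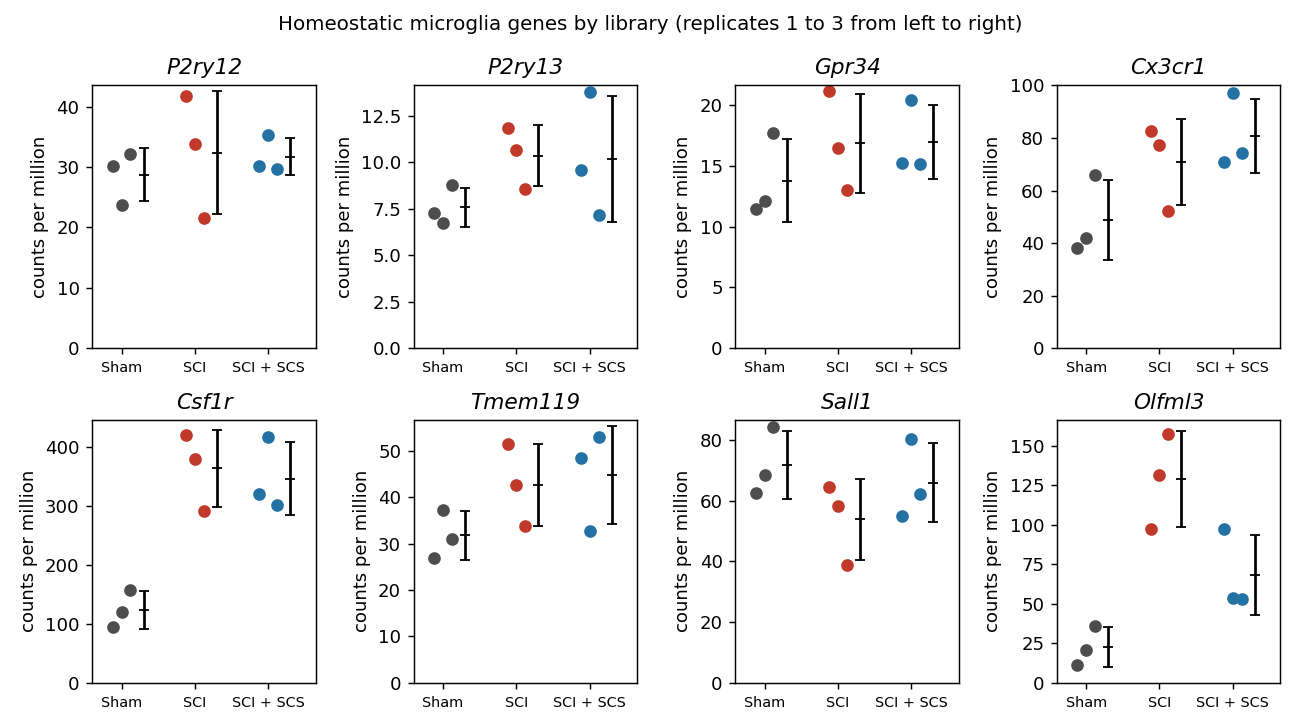
Level of each of the 8 genes in CPM (TMM over 9 libraries, axes from 0) in the Sham, SCI and SCI + SCS libraries, with the mean and SD of 3 rats as a bar beside the points. Csf1r and Olfml3 lay above all Sham libraries in both injured groups, while the P2ry12 libraries of all groups lay between 21.6 and 41.8 CPM.

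None of the receptors for nucleotides and lipids among the members passed the test after SCI. P2ry12 (ENSRNOG00000013902) lies on the minus strand of chromosome 2 from 143481430 to 143523361 in mRatBN7.2, the build named in the submitters' processing notes. It stood at 30.3, 23.8 and 32.2 CPM in the Sham libraries, 41.8, 33.8 and 21.6 CPM in the SCI libraries and 30.2, 35.3 and 29.7 CPM in the SCI + SCS libraries. The SCI libraries spanned more than the range of the Sham libraries, on both sides of it. The log2FC of SCI against Sham was 0.16 (standard error 0.25, 95% interval -0.44 to 0.76, adjusted p = 0.624), an interval that holds a fold between 0.737 and 1.69. Without SCI replicate 1 it was -0.07, so its direction rested on that library.

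P2ry13 (ENSRNOG00000029756, chromosome 2 from 143470425 to 143473434, minus strand) ends 7995 bases before P2ry12. Its mean was 7.58 ± 1.05 CPM for Sham, 10.4 ± 1.64 CPM for SCI and 10.2 ± 3.36 CPM for SCI + SCS rats (SD, n = 3 each). SCI against Sham gave a log2FC of 0.43 (standard error 0.18, adjusted p = 0.0874), and the lowest SCI library, at 8.58 CPM, lay just under the highest Sham library, at 8.75 CPM.

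Gpr34 (ENSRNOG00000039759, chromosome X from 9104565 to 9113960, minus strand) stood at 11.5, 12.1 and 17.7 CPM in the Sham libraries, 21.1, 16.5 and 13 CPM in the SCI libraries and 15.3, 20.4 and 15.1 CPM in the SCI + SCS libraries. The groups overlapped, and SCI against Sham gave a log2FC of 0.28 (standard error 0.24, adjusted p = 0.367). Gpr34 lies inside Cask, on the opposite strand, and the sources used here do not say that counting used strand, so reads of the pair cannot be told apart. Cask, named after its values were seen, had a log2FC of -0.27 (adjusted p = 0.202).

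The relatives of the members and the neighbours of P2ry12 on chromosome 2 moved in both directions. Of the list of 12 neighbours and relatives, 10 passed the filter on low counts, of which 4 were called higher and 4 lower after SCI, with a median log2FC of -0.13. P2ry14, a receptor for UDP-sugars, stood between 3.41 and 4.08 CPM in the Sham libraries and between 5.31 and 6.50 CPM in the SCI libraries, and it rose (log2FC 0.65, adjusted p = 0.0204). Gpr171, a G protein-coupled receptor gene of the same cluster, rose by a log2FC of 1.68 (standard error 0.31, adjusted p = 0.00599). Med12l, on the plus strand, fell by 1.89 on the log2 scale (standard error 0.30, adjusted p = 0.00352), and it overlaps Gpr171 and P2ry14, so these 3 counts are uncertain. P2ry14 was named after its values were seen, as one of the genes beside P2ry12.

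Cx3cr1 (ENSRNOG00000018509, chromosome 8 from 119782595 to 119799470, minus strand) encodes the fractalkine receptor. It stood at 38.2, 42.0 and 66.1 CPM in the Sham libraries, 82.8, 77.3 and 52.3 CPM in the SCI libraries and 70.8, 97.0 and 74.4 CPM in the SCI + SCS libraries. All SCI + SCS libraries were above all Sham libraries, while 1 SCI library lay under the highest Sham library. The log2FC was 0.52 for SCI against Sham (standard error 0.26, adjusted p = 0.133) and 0.73 for SCI + SCS against Sham (standard error 0.23, adjusted p = 0.0518), so that neither passed. Without Sham replicate 3 the values were 0.79 (adjusted p = 0.0312) and 1.01 (adjusted p = 0.00857), and DESeq2 called the second with all libraries (adjusted p = 0.0139). Its ligand Cx3cl1, named after its values were seen, stood at 121, 92.6 and 90.7 CPM in the Sham libraries and 97.6, 102 and 90.9 CPM in the SCI libraries (log2FC -0.09, adjusted p = 0.625).

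Csf1r (ENSRNOG00000018414, chromosome 18 from 54546659 to 54590415, plus strand) rose 2.91-fold after SCI. It stood at 94.1, 120 and 158 CPM in the Sham libraries, 420, 380 and 292 CPM in the SCI libraries and 321, 418 and 301 CPM in the SCI + SCS libraries. Every injured library was above every Sham library, and the SCI and SCI + SCS libraries overlapped. The log2FC of SCI against Sham was 1.54 (standard error 0.22, 95% interval 1.0 to 2.07, adjusted p = 0.00291), and that of SCI + SCS against Sham 1.49 (standard error 0.22, adjusted p = 0.00663). With SCI replicate 2 as the only SCI library, the first was 1.60 (adjusted p = 0.0559), and 0 of the 8 members were called higher, where 2.60% of all genes were. Of its ligands, named after their values were seen, Il34 rose (log2FC 0.84, adjusted p = 0.0139), and Csf1 had a log2FC of 0.31 (adjusted p = 0.224).

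Tmem119 (ENSRNOG00000000700, chromosome 12 from 42828418 to 42835689, plus strand) stood at 26.9, 37.3 and 31.1 CPM in the Sham libraries, 51.6, 42.6 and 33.8 CPM in the SCI libraries and 48.5, 32.8 and 52.9 CPM in the SCI + SCS libraries. The libraries of the 3 groups overlapped, and the log2FC was 0.41 for SCI against Sham (standard error 0.19, adjusted p = 0.117). Sall1 (ENSRNOG00000013907, chromosome 19 from 18007503 to 18022705, plus strand) had the only negative log2FC of the 8 after SCI. It stood at 62.6, 68.3 and 84.4 CPM in the Sham libraries, 64.5, 58.1 and 38.9 CPM in the SCI libraries and 55.0, 80.2 and 62.3 CPM in the SCI + SCS libraries. The highest SCI library lay above the lowest Sham library, and the log2FC was -0.43 (standard error 0.21, 95% interval -0.93 to 0.07, adjusted p = 0.132). Its paralogs Sall3 (log2FC -1.47, adjusted p = 0.0128, named after its values were seen) and Sall2 (log2FC -1.43, adjusted p = 0.00159) fell.

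Olfml3 (ENSRNOG00000019211, chromosome 2 from 191244221 to 191247050, minus strand) rose 5.61-fold after SCI. It stood at 11.1, 21.1 and 35.9 CPM in the Sham libraries, 97.2, 131 and 158 CPM in the SCI libraries and 97.4, 53.9 and 53.3 CPM in the SCI + SCS libraries. Every injured library was above every Sham library, and in the SCI + SCS group only replicate 1 reached the lowest SCI library. The log2FC of SCI against Sham was 2.49 (standard error 0.43, 95% interval 1.47 to 3.51, adjusted p = 0.00462), and it was 2.52 (adjusted p = 0.0703) with SCI replicate 2 as the only SCI library. For SCI + SCS against Sham it was 1.59 (standard error 0.45, adjusted p = 0.0381). That call was lost without any single library of the 6 other than Sham replicate 3, at adjusted p between 0.0524 (without Sham replicate 1) and 0.123 (without SCI + SCS replicate 1).

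**Figure D2:**
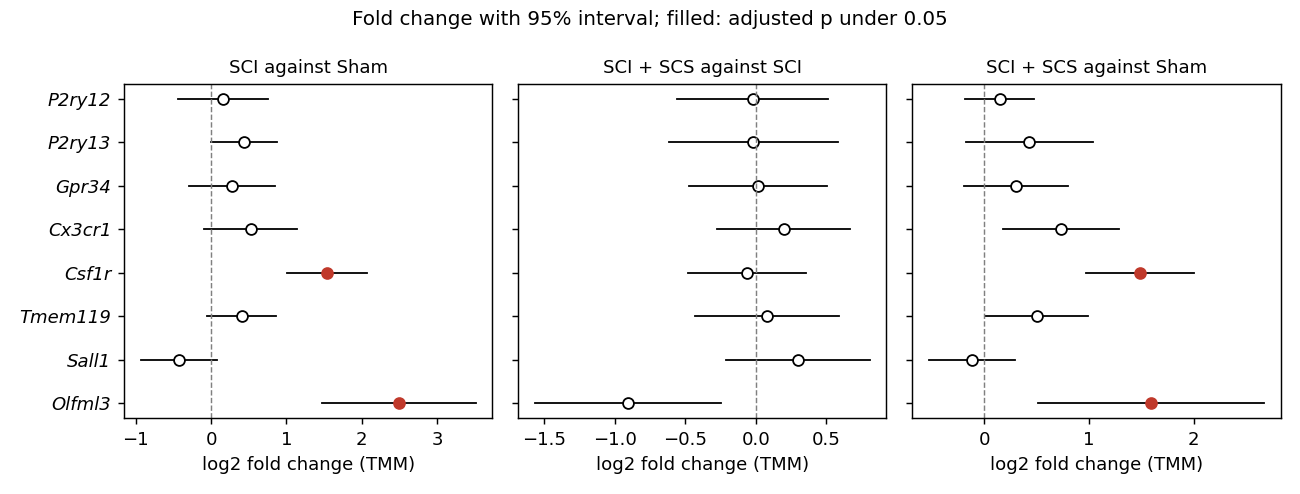
The log2FC of each of the 8 genes (TMM normalization) in the 3 comparisons, with its 95% interval, filled where the adjusted p was under 0.05. Only Csf1r and Olfml3 are filled, in both comparisons with Sham, and the interval of Olfml3 for SCI + SCS against SCI runs from -1.57 to -0.25.

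Olfml3 moved across libraries with a list of 8 fibroblast genes. The summed CPM of that list was 381, 1167 and 1868 in the Sham libraries, 3323, 4790 and 4987 in the SCI libraries and 3477, 2052 and 2275 in the SCI + SCS libraries. Olfml3 was equal to 1.81 to 3.16% of that sum in all 9 libraries, a span of 1.75-fold, while its own level spanned 14.2-fold. After SCI, 7 of the 8 fibroblast genes were called higher, with a median log2FC of 1.72, led by Fap (3.19, adjusted p = 0.00454), Col3a1 (2.41, adjusted p = 0.0230), Col1a2 (1.89, adjusted p = 0.0362) and Col1a1 (1.82, adjusted p = 0.0339). None of the 8 fibroblast genes was at 0 over the libraries. The part of fibroblast or monocyte RNA in the level of Olfml3 was not tested. The genes with a library profile most like that of Olfml3, by the root mean square (RMS) difference of centred log2 CPM over the 9 libraries, were Twist1 (0.13), Mfap2 (0.15) and Dab2 (0.17), and those most like Csf1r were Nckap1l (0.10), Sh3bp2 (0.10) and Dock8 (0.12).

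**Figure D3:**
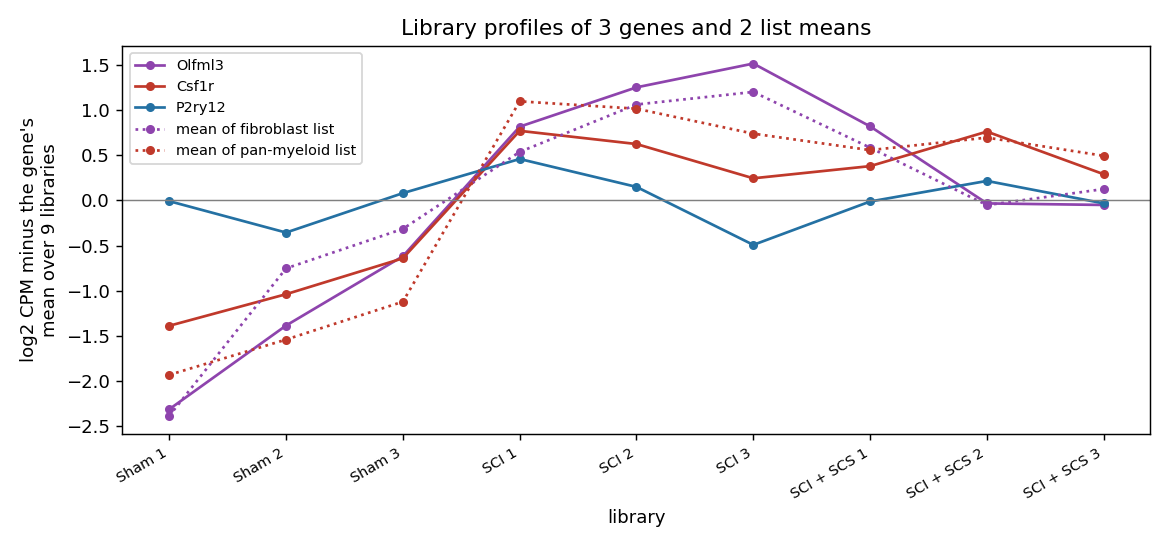
Log2 CPM of Olfml3, Csf1r and P2ry12 in each of the 9 libraries, less the mean of the gene over them, with the mean of the fibroblast and of the pan-myeloid list as dotted lines. Olfml3 and the fibroblast mean are lowest in Sham replicate 1 and highest in SCI replicate 3, whereas Csf1r stays between 0.24 and 0.77 in the 6 injured libraries.

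RefSeq promoter windows of GRCr8, which run from 250 bases before to 50 bases after a gene's start, matched 5 of the 8 symbols. Of the windows below, Csf1r and Olfml3 belong to the members that rose and Cx3cr1 and Gpr34 to those that were not called, and they are shown to set the sequence beside that split. Capitals mark GAGGAA or its reverse complement TTCCTC, the core letters bound by PU.1, the transcription factor encoded by Spi1, with both strands searched.
Csf1r, chr18:56834129-56834428, plus strand: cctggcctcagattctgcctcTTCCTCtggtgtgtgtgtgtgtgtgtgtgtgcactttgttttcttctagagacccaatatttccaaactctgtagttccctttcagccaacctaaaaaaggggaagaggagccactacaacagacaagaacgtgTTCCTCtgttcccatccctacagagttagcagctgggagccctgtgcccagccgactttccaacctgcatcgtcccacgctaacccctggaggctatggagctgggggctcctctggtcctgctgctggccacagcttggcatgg
Olfml3, chr2:193935445-193935744, minus strand: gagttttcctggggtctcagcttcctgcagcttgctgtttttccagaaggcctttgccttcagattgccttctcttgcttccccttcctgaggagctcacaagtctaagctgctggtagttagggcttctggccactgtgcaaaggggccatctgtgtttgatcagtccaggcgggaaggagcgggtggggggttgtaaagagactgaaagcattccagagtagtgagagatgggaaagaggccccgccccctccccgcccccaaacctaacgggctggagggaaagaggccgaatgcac
Gpr34, chrX:11785787-11786086, minus strand: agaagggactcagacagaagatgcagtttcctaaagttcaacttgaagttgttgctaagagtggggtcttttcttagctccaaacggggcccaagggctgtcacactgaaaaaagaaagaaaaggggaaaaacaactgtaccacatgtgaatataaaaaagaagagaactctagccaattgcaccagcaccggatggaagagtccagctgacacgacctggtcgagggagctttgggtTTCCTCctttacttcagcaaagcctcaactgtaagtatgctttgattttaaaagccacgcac
Cx3cr1, chr8:128677017-128677316, minus strand: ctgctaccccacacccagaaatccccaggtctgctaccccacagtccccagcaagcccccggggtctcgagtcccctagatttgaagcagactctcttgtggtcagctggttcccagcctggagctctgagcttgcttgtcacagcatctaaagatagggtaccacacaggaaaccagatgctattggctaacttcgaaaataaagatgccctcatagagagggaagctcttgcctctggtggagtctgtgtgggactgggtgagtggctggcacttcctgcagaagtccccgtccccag
The letters occurred 2 times in the Csf1r window, starting at -229 and -95 from the gene's start, and 1 time in the Gpr34 window, at -12. They were not in the Olfml3 and Cx3cr1 windows, nor in that of P2ry13. Of 33469 promoter windows of the same length, 27.6% held them, and among these members they stood in 1 called and 1 uncalled gene. Spi1 itself stood at 6.25, 7.78 and 11.9 CPM in the Sham libraries and 71.3, 76.6 and 55.9 CPM in the SCI libraries, a log2FC of 2.96 (standard error 0.26, adjusted p = 0.00120).

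Compared per length, in FPKM, Csf1r had the highest level of the 8 in each group, with means of 25.8 ± 6.76 FPKM for Sham, 75.1 ± 10.2 FPKM for SCI and 74.0 ± 13 FPKM for SCI + SCS rats (SD, n = 3 each). In the Sham group a band of 5 genes followed, from Sall1 at 11 ± 1.74 FPKM (SD, n = 3) through Tmem119, Olfml3 and P2ry12 to Cx3cr1 at 8.71 ± 2.70 FPKM (SD, n = 3), and no neighbours in that band differed by more than the sum of their SDs. Gpr34, at 4.12 ± 0.995 FPKM (SD, n = 3), and P2ry13, at 2.36 ± 0.308 FPKM (SD, n = 3), closed the order in all groups. In the SCI group Olfml3 was second, at 59.3 ± 18.0 FPKM (SD, n = 3), within the spread of Csf1r, and Sall1 was sixth, at 7.58 ± 1.64 FPKM (SD, n = 3). In the SCI + SCS group Olfml3 was second again, at 31.9 ± 11.9 FPKM (SD, n = 3), below Csf1r in all 3 libraries, and Tmem119, Cx3cr1, P2ry12 and Sall1 followed in the same order as in the SCI group.

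Lists of other microglia and macrophage genes had higher medians after SCI than the 8. Of 17 further homeostatic microglia genes found in the files, 16 passed the filter, of which 10 were called higher and 1 lower, with a median log2FC of 1.04. They were led by Ltc4s, an enzyme of leukotriene synthesis (1.92, adjusted p = 0.00227), P2ry6, a receptor for UDP (1.78, adjusted p = 0.0107), and Abi3 (1.72, adjusted p = 0.00265). Upk1b had a log2FC of 2.54 (adjusted p = 0.0948) and did not pass. The gene called lower was Bin1 (-0.74, adjusted p = 0.0284, named after its values were seen), which is also expressed by oligodendrocytes. Of 9 further transcription factors, 5 were called higher, among them Spi1, Cebpa (2.40, adjusted p = 0.000972) and Irf8 (1.89, adjusted p = 0.00430), and 2 were called lower, with a median of 0.82. Of 9 ligands and genes of the TGF-β axis, a signal that maintains microglial identity, 6 were called higher and 1 lower, with a median of 1.36. The gene called lower was Itgb8 (log2FC -1.25, named after its values were seen). It stood at 25.3, 42.7 and 33.4 CPM in the Sham libraries and 9.10, 19.6 and 14.5 CPM in the SCI libraries. Tgfb1 rose by a log2FC of 2.29 (adjusted p = 0.00202), Pla1a by 1.80 (adjusted p = 0.00344), Nrros, which holds latent TGF-β1 on microglia, by 1.68 (adjusted p = 0.00225) and the receptor Tgfbr1 by 1.36 (adjusted p = 0.00324).

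The pan-myeloid list, genes that microglia and macrophages share, had 10 of 11 genes called higher and a median log2FC of 2.59. Its summed level was 831 to 977 CPM in the Sham libraries, 3164 to 4139 CPM in the SCI libraries and 2854 to 3277 CPM in the SCI + SCS libraries. Tyrobp, an adaptor of myeloid receptors, rose by a log2FC of 3.71 (adjusted p = 0.00106), C1qc of the complement by 2.93 (adjusted p = 0.00213) and C1qa by 2.93 (adjusted p = 0.00129). Of the 18 genes of activated phagocytes, 16 were called higher, with a median of 2.50, led by Gpnmb (6.20, adjusted p = 0.000976), the lysosomal Cd68 (5.81, adjusted p = 0.00137), Clec7a (4.85, adjusted p = 0.00381) and Lgals3 (4.32, adjusted p = 0.00287). Markers of other myeloid cells moved too. Of 9 border macrophage genes, 7 were called higher, with a summed level of 75.0 to 141 CPM in the Sham libraries and 291 to 414 CPM in the SCI libraries. Of 6 monocyte genes, 4 were called higher (95 to 311 CPM against 922 to 1158 CPM), and of 7 neutrophil genes tested, 5 were (3.84 to 8.68 CPM against 18.0 to 36.1 CPM). Of 11 lymphocyte genes tested, 7 were called higher (1.27 to 3.72 CPM against 25.4 to 28.3 CPM). None of the genes of these lists was at 0 over all libraries, and their part in the levels of Csf1r and the other members was not tested.

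**Figure D4:**
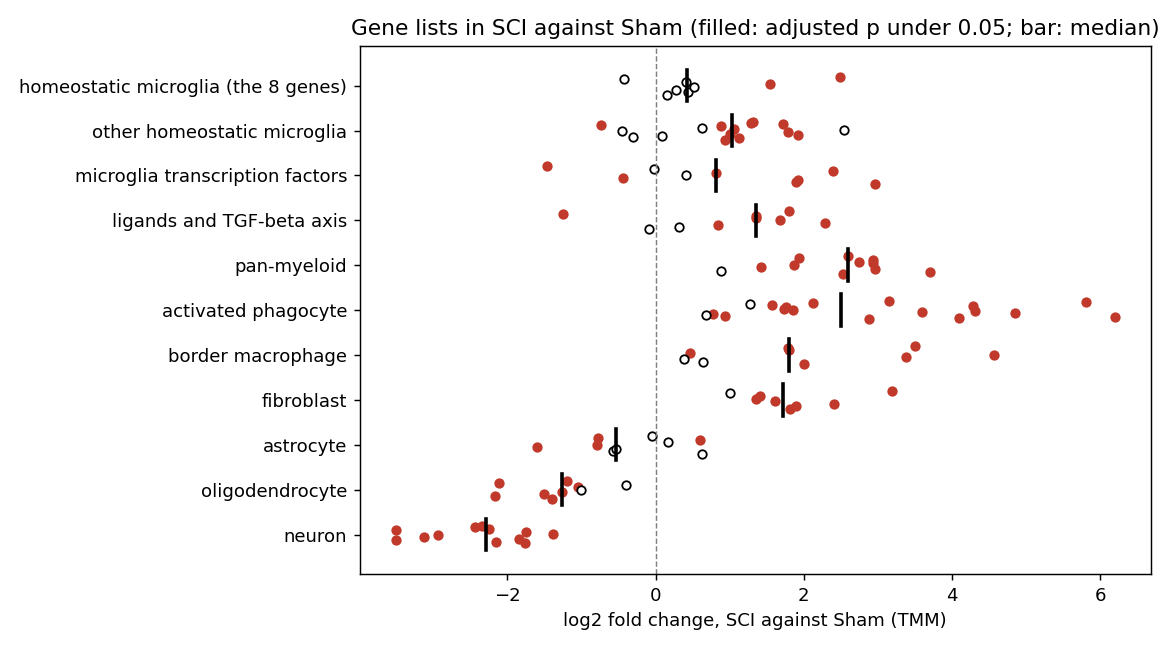
The log2FC of SCI against Sham (TMM) for each gene of 11 lists, filled where the adjusted p was under 0.05, with the median of each list as a bar. The bar of the 8 genes is at 0.42, that of the pan-myeloid list at 2.59 and that of the activated phagocyte list at 2.50, and all 12 neuron genes are filled and negative.

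Set against the pan-myeloid genes of the same library, the members took a lower level after SCI, as nearly every gene in the table did. With the mean log2 count of the 11 pan-myeloid genes as the scale in place of TMM, the edgeR test called 7 of the 8 members lower in the SCI group, where 88.8% of all genes were, so this count is no result about the members. The scale moved the median log2FC of all genes to -2.48, and that of the members was -2.07. The log2 of the Sall1 count over that mean was 1.10, 0.84 and 0.72 in the Sham libraries and -1.88, -1.95 and -2.26 in the SCI libraries. For P2ry12 it was 0.05, -0.69 and -0.67 in the Sham libraries and -2.51, -2.74 and -3.10 in the SCI libraries. For Csf1r it was 1.69, 1.65 and 1.63 in the Sham libraries, which lay within 0.07 of each other, and 0.82, 0.75 and 0.65 in the SCI libraries. Every SCI library was below every Sham library for all members but Olfml3. The share of all genes separated in this way was not counted, and the scale lowered nearly all genes. The separation is therefore no result about the members. Beside the median of -2.48 over all genes, the fitted differences were -2.92 (standard error 0.31) for Sall1, -2.37 (standard error 0.34) for P2ry12, -2.19 (standard error 0.31) for Gpr34, -2.09 (standard error 0.32) for Tmem119, -2.06 (standard error 0.33) for P2ry13, -1.93 (standard error 0.30) for Cx3cr1 and -0.91 (standard error 0.28) for Csf1r. The size of these differences rested on the reference. Csf1r had -0.45 with the summed counts of the list and -2.23 with Tyrobp alone as the scale, and P2ry12 had -1.86 and -3.69, all of them called. Olfml3 had 0.17 (standard error 0.34, adjusted p = 0.636), and its direction turned without Sham replicate 1 (-0.03) or SCI replicate 3 (-0.14) and with Tyrobp alone as the scale (-1.15). With SCI replicate 2 as the only SCI library, Csf1r had -0.90 (adjusted p = 0.213) and was no longer called.

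**Figure D5:**
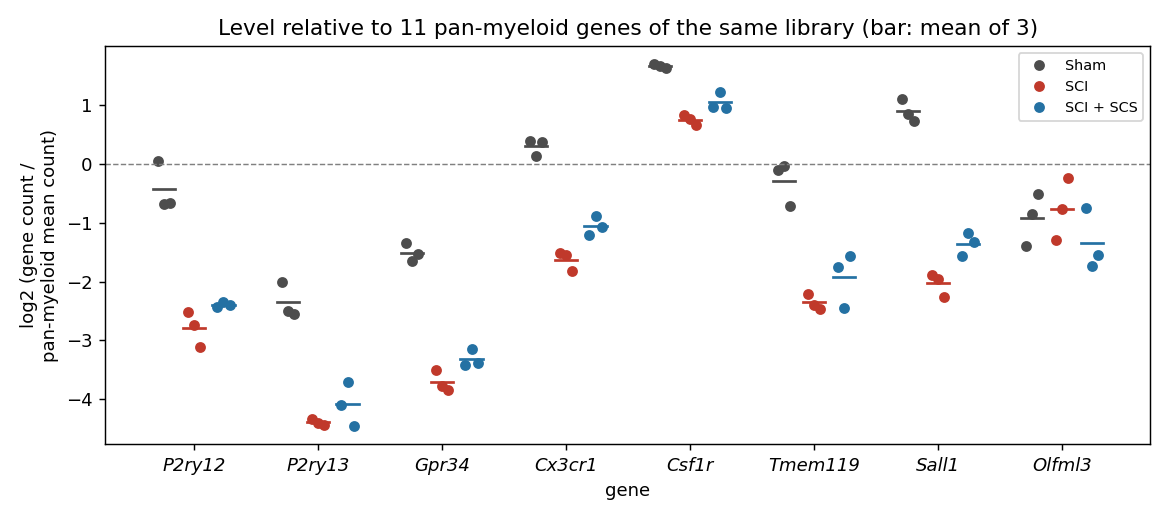
The log2 of each gene's count over the mean (log2 scale) of 11 pan-myeloid genes in the same library, for the Sham, SCI and SCI + SCS libraries, with the mean of 3 rats as a bar. The Sham means of all genes but Olfml3 are above the means of both injured groups, and the Olfml3 means lie between -1.35 and -0.77.

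Between the SCI + SCS and SCI groups, none of the 8 members passed. By the edgeR test with adjusted p-values, 0 of the 8 were called, where 0.00566% of all genes were (1 of 17663). Of the members 1, Olfml3, had an unadjusted p under 0.05, where 4274 of the 17663 genes did. The median log2FC of the members was 0.00 (range, -0.91 to 0.30), beside -0.01 over all genes. Olfml3 had a log2FC of -0.91 (standard error 0.28, adjusted p = 0.123), and DESeq2 called it (-0.92, standard error 0.27, adjusted p = 0.0111), where it called 5.04% of all genes lower. With SCI replicate 2 as the only SCI library, 0 members were called as well. All 8 fibroblast genes had a negative log2FC as well, with a median of -0.70 and 0 called. So did all 9 border macrophage genes tested, with a median of -0.98 and 0 called. The median was -1.39 for the 13 lymphocyte genes and 1.03 for the 12 neuron genes, again with 0 called. The bearing of these lists on Olfml3 was not tested.

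For the other 7 members the 95% intervals limit the difference between stimulated and unstimulated rats. The fold of SCI + SCS over SCI lay between 0.681 and 1.43 for P2ry12, 0.652 and 1.5 for P2ry13, 0.721 and 1.42 for Gpr34, 0.828 and 1.59 for Cx3cr1, 0.716 and 1.28 for Csf1r, 0.741 and 1.5 for Tmem119 and 0.864 and 1.75 for Sall1. The intervals do not show that the groups were alike. On the pan-myeloid scale, 2 of the 8 were called higher in the SCI + SCS group, where 18.8% of all genes were, with the median of all genes at 0.35 and that of the members at 0.38. On this scale every SCI + SCS library was above every SCI library for P2ry12, Gpr34, Cx3cr1, Csf1r and Sall1. The share of all genes separated in this way was not counted, and the median over all genes was near that of the members. This separation is therefore no result about the members either. The members called were Sall1 (0.67, standard error 0.17, adjusted p = 0.0224) and Cx3cr1 (0.57, standard error 0.16, adjusted p = 0.0338). Neither was called with the summed counts of the list as the scale (0.57, adjusted p = 0.0527 for Sall1, and 0.47, adjusted p = 0.0875 for Cx3cr1), without SCI replicate 2 or without SCI + SCS replicate 3, and with SCI replicate 2 as the only SCI library 0 members were called.

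Against the Sham group, the SCI + SCS group had 2 of the 8 members called higher, Csf1r and Olfml3, where 16.2% of all genes were, and 0 called lower, where 16.2% were as well. The median log2FC of the members was 0.46 (range, -0.12 to 1.59), beside 0.01 over all genes. The unadjusted p was under 0.05 for 4 members, where it was for 8152 of the 17640 genes tested. On the pan-myeloid scale 7 of the 8 were called lower, where 91.4% of all genes were (median of all genes -2.14, of the members -1.67), with differences from -2.24 for Sall1 to -0.61 for Csf1r and with Olfml3 at -0.41 (adjusted p = 0.242). The call of Csf1r (adjusted p = 0.0306) was lost with the summed counts of the list (-0.24, adjusted p = 0.182), with Aif1 alone (adjusted p = 0.128) and without C1qa, C1qb and C1qc (adjusted p = 0.0566). It was also lost without Sham replicate 2 (adjusted p = 0.120) and without SCI + SCS replicate 1, 2 or 3 (adjusted p = 0.126, 0.0657 and 0.157). This comparison uses the same Sham libraries as that of SCI with Sham. Of the further homeostatic microglia genes, 10 of 16 were called higher and 1 lower, with a median of 1.05, and of the pan-myeloid genes 10 of 11, with a median of 2.2.

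Across the 9 libraries the 8 genes did not share one profile. Among 14079 genes with a symbol and a mean of at least 1 CPM, the profile nearest to that of P2ry13 from another member was that of Gpr34, which ranked 10 (RMS difference 0.18), and Gpr34 also ranked 12 for P2ry12 (0.18) and 29 for Cx3cr1 (0.20). For Csf1r the nearest member was Cx3cr1, at rank 1185 (0.44), for Olfml3 it was Csf1r, at rank 1127 (0.66), for Sall1 it was P2ry12, at rank 1219 (0.28), and for Tmem119 it was Gpr34, at rank 3766 (0.35). The genes nearest to the mean profile of the 8 were Aurka (0.07), Rrbp1 (0.10), Rassf3 (0.10), Cntrl (0.10), Homer3 (0.11) and Nsl1 (0.11). These distances describe 9 libraries that differ in depth and composition, and the part of those differences in the distances was not tested.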

How the data were processed

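RNA was measured in spinal cord tissue of 3 Sham, 3 SCI and 3 SCI + SCS rats, grouped by the titles and treatments in the labels, which name 1 batch. The authors selected poly(A) RNA on oligo(dT) beads and deposited raw counts per gene, without normalization, and FPKM values (counts scaled by gene length and library total). Their processing notes name fastp 0.23.2, HISAT2 2.2.1 and mRatBN7.2, and the counting program is not given in the sources used here. From the counts, edgeR 4.0.16 in R 4.3.3 (quasi-likelihood test, TMM, default filter on low counts) compared groups over the 6 libraries concerned, with Benjamini-Hochberg adjustment over all genes tested, and a call was an adjusted p under 0.05. The standard error is the log2FC divided by the square root of F, and 95% intervals use the t quantile of the fit. The paper's methods name DESeq2, which was run here as an alternative (DESeq2 1.42.0), as was limma 3.58.1 on log2(FPKM + 1) and log2(FPKM + 0.1) above a mean FPKM of 0.1. CPM values were normalized by TMM over 9 libraries, with a prior count of 2 on the log scale. The tests were tested on simulated data.

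The members and lists were chosen with earlier results of these data known. All 8 members are named, and of other lists at most 4 genes, those with the largest absolute log2FC in SCI against Sham among genes that passed the filter, and further ones only as marked. Fcrls, Itgam and Lyve1 were not used here. Fcer1g of the pan-myeloid list stands on 2 rows with uneven counts and is uncertain. Depth was 62844376 to 88358570 counts, and floors of 3 counts cover counting error only. Same-numbered libraries are different rats whose deviations from the group means correlated between -0.22 and 0.15, so the numbers were not taken as pairs. Alternatives covered normalization, filters, test, reference genes, libraries left out and the replicate number.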

Additional observations from a re-analysis of the deposited data

How the results depend on the processing

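Over 728 combinations of a member's log2FC with an alternative, 660 kept direction and side of the threshold, 31 lost and 15 gained a call, and 22 turned direction. The choices added after seeing the data were SCI replicate 2 as the only SCI library, Tyrobp alone as the reference and the pan-myeloid list without Fcer1g. With Itgam alone as the reference, no fit was run, since that symbol was not used here. The cause of the changes below was not tested.

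For SCI against Sham, 2 members were called under every alternative except SCI replicate 2 as the only SCI library (0) and without Sham replicate 3 (3). Without Sham replicate 3, 4120 of 18093 genes were called higher. The P2ry12 log2FC ran from -0.069 to 0.37 with each library left out. On the pan-myeloid scale, Olfml3 ran from -0.14 to 0.40 with each library left out, and was -1.15 with Tyrobp alone.

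For SCI + SCS against SCI, 0 members were called except by DESeq2 (1). P2ry12 turned to 0.027 with the replicate block and to 0.10 and 0.11 with limma on log2(FPKM + 1) and log2(FPKM + 0.1). With each library left out, the log2FC ran from -0.25 to 0.19 for P2ry12, -0.30 to 0.18 for P2ry13, -0.15 to 0.20 for Gpr34, -0.22 to 0.041 for Csf1r and -0.073 to 0.26 for Tmem119. On the pan-myeloid scale, 2 members were called higher, where 3329 of 17663 genes were. With the summed counts of the list it was 0 members and 2051 genes. With Aif1 alone it was 1 member and 2538 genes, and with Tyrobp alone 6 members and 9062 genes. With the replicate block it was 0 members and 2610 genes, and with each library left out 0 to 2 members and 703 to 6025 genes. The count over all genes thus moved with the scale. For SCI + SCS against Sham, the 2 members called became 1 with the replicate block (Csf1r, whose call on the pan-myeloid scale was lost with it, adjusted p = 0.116) and 1 to 3 with each library left out, and the Sall1 log2FC ran from -0.29 to 0.0081. The number of members called was 3, with Cx3cr1 added, by DESeq2 and by limma with both pseudocounts. It was also 3, with Cx3cr1 added, with at least 10 counts in every library and with all 9 libraries in one fit. Over all genes, the edgeR test called 2861 of 17640 higher, and 713 of 17640 with the replicate block. Leaving out each library gave 1179 to 3302. DESeq2 called 3565 of 22163 higher, and limma 3222 and 3181 of 17480 with the pseudocounts 1 and 0.1. With at least 10 counts in every library it was 2952 of 16244, and with all 9 libraries in one fit 3068 of 18077.

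Same-numbered libraries share only a number. With the replicate block, the genes called over the whole table went from 5710 to 1259 for SCI + SCS against Sham and from 8796 to 8701 for SCI against Sham. For SCI + SCS against SCI, 1 gene was called, against 2550 by DESeq2 and 31 and 19 by limma with the pseudocounts 1 and 0.1, and 0 to 169 with each library left out. Leaving out a library gave 2149 to 6637 calls for SCI + SCS against Sham, and SCI replicate 2 alone gave 848 for SCI against Sham. Members had at least 457 counts in every library.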
